A study of Rattus norvegicus with 10 samples.

Results

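The cytosolic ribosomal protein genes were taken as the genes whose symbols are Rpl (large subunit) or Rps (small subunit) followed by a number and at most a letter and a digit, together with Rplp0, Rplp1 and Rplp2 of the ribosomal stalk, Rpsa and Fau. They were matched by symbol, and the set was chosen with earlier results of these data known. Of the 32545 genes in the count table, 106 matched, 67 of the large and 39 of the small subunit. RNA-seq was performed on CA1 tissue microdissected from hippocampal slices of rats, in 5 groups of 2 biological replicates. The rats were Wistar animals, given in the methods as adult males of 5 to 7 weeks, and each repeat combined 2 slices from 2 biological samples. The SKF group received SKF, an agonist of the dopamine receptors D1 and D5. The SKF+Aβ group also received oligomers of the peptide Aβ(1–42) at 200 nM. Slices of the carrier group (SKF+Aβ+CSP) were given, in addition, the glucose-derived carbon nanosphere CSP at 0.36 μg/ml without a drug. Those of the conjugate group (SKF+Aβ+CSP‐TTK21) were given the nanosphere carrying TTK21, which activates CBP and p300, enzymes that acetylate histones. The fifth group, CSP‐TTK21 alone, received neither SKF nor Aβ. Drugs followed a basal stimulation of 30 min, and tissue was collected 1 h after treatment. Untreated slices were not analysed here, so that every comparison below is between treated groups.

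A cytosolic ribosome is built from a large and a small subunit, each made of ribosomal RNA and a fixed set of proteins that are needed in nearly equal numbers. Most vertebrate ribosomal protein mRNAs start with a C followed by a run of pyrimidines, the 5′ terminal oligopyrimidine (TOP) tract, through which the mTOR pathway controls their translation. In neurons, new protein synthesis is needed for late long-term potentiation, and ribosomal protein mRNAs are also found in dendrites and axons. In bulk tissue such as this, fewer cells of a type and less RNA per cell cannot be told apart.

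Total counts were between 6753742 and 8473407 per library. The 6 neuronal markers were all counted, with a summed level between 5827 and 7017 normalized CPM (CPM, a count scaled to the library total and its TMM factor, which compares 1 gene between libraries). Of the 4 markers of CA1, Wfs1 and Man1a1 were counted in every library. Fibcd1 was at 0 in all 10 and Pou3f1 was not found. The CA1 sum was between 144.9 and 449.6, and that of the 3 dentate gyrus markers between 196.9 and 300.3. These are sums of different genes, so they do not compare the CA1 and dentate gyrus content. Mitochondrial transcripts took 3.58% of counts in SKF replicate 1 and up to 7.71% elsewhere, so that this library had the lowest share.

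Of the 106 genes, 72 passed the filter on low counts (43 large, 29 small) and were tested among 15032 genes. The other 34 had a mean of at most 3.0 counts, and 28 of the 106 had a mean below 1 count. Counts were concentrated in 59 genes with a mean of at least 100 counts (36 large, 23 small, with means from 170.7 to 2571.2 counts), which held 99.6% of all counts on the 106. Of a set of 79 symbols of the core ribosome, 69 had an entry in the table and 57 reached a mean of 100 counts. Those with no entry included Rpl10, Rpl21, Rpl22, Rpl36a, Rps9, Rps12, Rps13, Rps21 and Rps26. Rps6, the subunit protein phosphorylated downstream of mTOR, was listed at a mean of 0.6 counts, Rps19 at 2.0 counts, and Fau, which encodes a small subunit protein fused to a ubiquitin-like protein, at 0.0 counts. Every ribosome holds these proteins, so a value near 0 in this table cannot be read as absence of the mRNA. Symbols with several entries, such as Rpl39 with 7 and Rpl35a with 5, belong to families with near-identical copies between which reads may be divided, and are named with their Ensembl identifier where they are described.

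The ribosomal protein genes held less than 1% of the counts in every library. Their share was 0.835% and 0.972% in the replicates of SKF, 0.694% and 0.796% in SKF+Aβ, and 0.790% and 0.683% in the carrier group. It was 0.847% and 0.902% in the conjugate group, and 0.809% and 0.874% in CSP‐TTK21 alone. Both SKF libraries and both conjugate libraries lay above all 4 libraries of SKF+Aβ and the carrier group, and the CSP‐TTK21 alone libraries did too, by a smaller margin. As group means the share was 0.903% ± 0.0972 (SD, n = 2) in SKF, 0.745% ± 0.0720 in SKF+Aβ, 0.737% ± 0.0758 in the carrier group, 0.875% ± 0.0382 in the conjugate group and 0.841% ± 0.0466 in CSP‐TTK21 alone. The gap between replicates was large beside these differences, since SKF replicate 1 was closer to SKF+Aβ replicate 2 than to SKF replicate 2.

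The balance between the subunits varied less than the share of both together. The ratio of large to small subunit counts was 1.58 and 1.54 in the SKF replicates, 1.61 and 1.57 in SKF+Aβ, and 1.56 and 1.59 in the carrier group. It was 1.56 in both libraries of the conjugate group, and 1.61 and 1.56 in CSP‐TTK21 alone. The ranges of SKF, SKF+Aβ, the carrier group and CSP‐TTK21 alone overlapped, and the 2 values of the conjugate group fell within the SKF range. In summed counts this overlap rested on the genes of highest count. Without the 3 of highest count in each subunit the ratio was 1.55 and 1.59 in SKF. It was between 1.60 and 1.64 in the other 8 libraries, so that both SKF libraries lay below all others, the conjugate libraries (both 1.60) included. With each tested gene weighted alike, the groups overlapped. The large minus small difference in mean log2 level was 0.019 and 0.103 in SKF and 0.077 and 0.056 in the conjugate group. From the lowest to the highest library the ratio differed 1.05-fold with all genes and 1.06-fold without those of highest count, whereas the share of counts differed 1.42-fold. The ratio is of counts, not of molecules, because longer mRNAs give more counts. The subunits' mean log2 levels over the 59 genes correlated with r = 0.989 across the 10 libraries, a description without a test, since all genes share the same libraries and normalization.

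**Figure D1:**
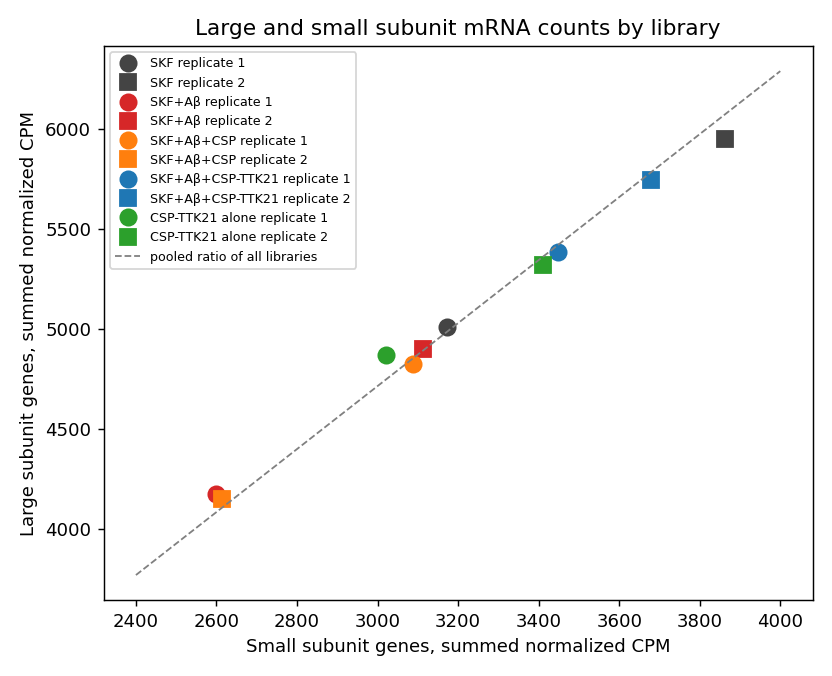
Summed normalized CPM of the large subunit genes (vertical axis) against that of the small subunit genes (horizontal axis), 1 point for each of the 10 libraries, with circles for replicate 1, squares for replicate 2 and colors for the 5 groups. SKF+Aβ+CSP is the carrier group. The points lie near the dashed line of the pooled ratio, from SKF+Aβ replicate 1 and carrier replicate 2 at the lower left to SKF replicate 2 at the upper right. The axes do not start at 0.

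Most ribosomal protein genes varied together from library to library. Over the 59 genes, the correlation of a gene's log2 level with the mean of the others across the 10 libraries had a median of 0.864. It was over 0.8 for 38 genes, over 0.5 for 52, and below 0 for Rpl7l1 (r = -0.20) and Rpl22l1 (r = -0.10). In SKF replicate 2, 52 of the 59 genes were above their own mean over the 10 libraries, against 27 in SKF replicate 1. The number was 4 and 20 in the replicates of SKF+Aβ, and 19 and 2 in those of the carrier group. It was 50 and 57 in the conjugate group, and in CSP‐TTK21 alone it was 24 and 51. The markers of microglia, immune cells of the brain, varied in the same order within each of the 5 groups. Their summed level (5 of 5 markers counted, none at 0 in all libraries) was 56.0 and 107.7 normalized CPM in SKF, 51.3 and 83.0 in SKF+Aβ, and 60.02 and 49.3 in the carrier group. It was 74.5 and 110.8 in the conjugate group and 79.6 and 108.3 in CSP‐TTK21 alone. The library with the higher microglial sum was the library with the higher ribosomal protein share in each group. Microglia were picked from the marker lists for this match, and its part in the results was not tested. Other lists did not match in every group. Astrocyte sums ran the other way in SKF+Aβ (3103 and 2639) and the conjugate group (3470 and 3342), and matched elsewhere. Neuronal sums ran the other way only in CSP‐TTK21 alone (6272 and 6148). The 5 oligodendrocyte markers, all counted, summed to 15680 and 23313 normalized CPM in SKF, 15083 and 10646 in SKF+Aβ, 16830 and 17188 in the carrier group, 24292 and 14463 in the conjugate group, and 14705 and 14523 in CSP‐TTK21 alone. Their median log2 fold change was -0.63 in SKF+Aβ against SKF, with all 5 below 0. At an unadjusted p under 0.05, 3 were lower, beside 10.9% of all genes. The median was 0.58 in the conjugate group against SKF+Aβ, with all 5 higher at an unadjusted p under 0.05, beside 2.52% of all genes. Of these 5, 1 was higher without overlap, beside 18.2% of all genes. Against SKF the median was -0.25 in the carrier group, -0.30 in CSP‐TTK21 alone and -0.02 in the conjugate group. It was 0.39 in the carrier group against SKF+Aβ, and 0.17 in the conjugate group against the carrier group. None of the 5 markers passed the adjusted threshold with edgeR in any comparison, and their part in the results was not tested.

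**Figure D2:**
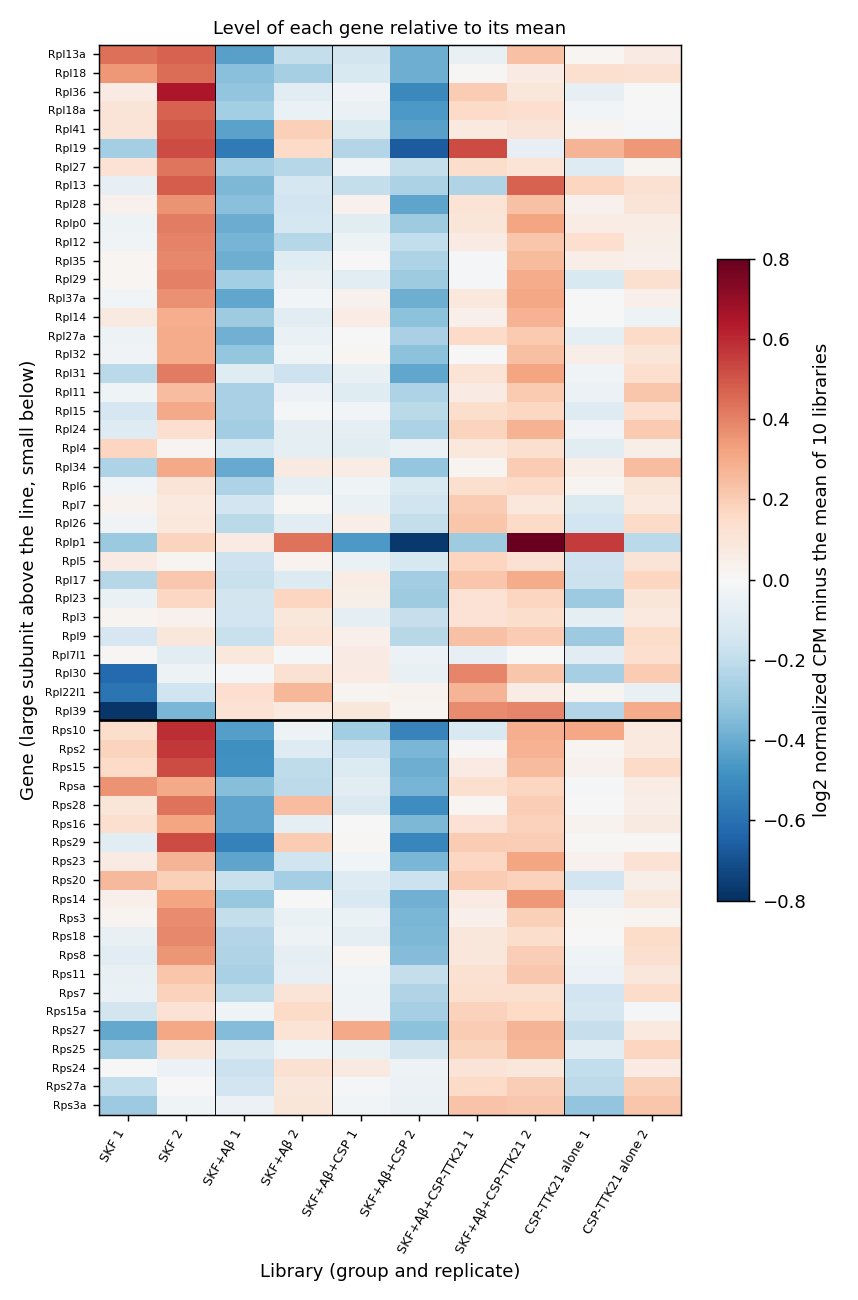
Log2 normalized CPM of 57 of the 59 genes with a mean of at least 100 counts (vertical axis), minus each gene's mean over the 10 libraries (horizontal axis), with red for levels above the mean, blue for levels below it, and colors saturated beyond 0.8. Large subunit genes are above the black line and small subunit genes below it, ordered within each by their difference between the 4 SKF+Aβ and carrier libraries and the 2 SKF libraries. Some columns are mostly red (SKF replicate 2, both conjugate libraries, CSP‐TTK21 alone replicate 2) and some mostly blue (SKF+Aβ replicate 1, carrier replicate 2). Rpl39, Rpl22l1 and Rpl30 at the foot of the large subunit block break from the others.

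The comparison of SKF+Aβ with SKF addresses the effect of Aβ oligomers on slices in which D1/D5 receptors were activated. The median log2 fold change was -0.31 over the 72 genes and -0.00 over all genes tested. The median was -0.26 in the large subunit and -0.33 in the small subunit, and 59 of the 72 genes had a log2 fold change below 0, where 50.1% of all genes did. With edgeR's quasi-likelihood test and Benjamini-Hochberg adjustment over all genes, 4 of the 72 genes fell at an adjusted p under 0.05 and 0 rose, where 0.852% of all genes tested fell, 1.22% rose and 2.08% changed in either direction. At an unadjusted p under 0.05, 23 genes were lower, 31.9% of the 72 beside 10.9% of all genes. In 33 genes, 45.8%, both SKF+Aβ libraries were below both SKF libraries, and this was so for 24.3% of all genes, while 4 genes were above without overlap beside 25.2% of all genes. The level in SKF rested much on replicate 2, because without SKF replicate 2 the median was -0.12 and without SKF replicate 1 it was -0.47. Without SKF+Aβ replicate 1 it was -0.19. No gene was called when either library of SKF, SKF+Aβ or the carrier group was left out, and 3 (Rpl13a, Rpl18 and Rpsa) when either library of the conjugate group or of CSP‐TTK21 alone was. Of all genes, between 0.00644% and 1.11% were called in the former fits and between 1.16% and 1.92% in the latter.

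**Figure D3:**
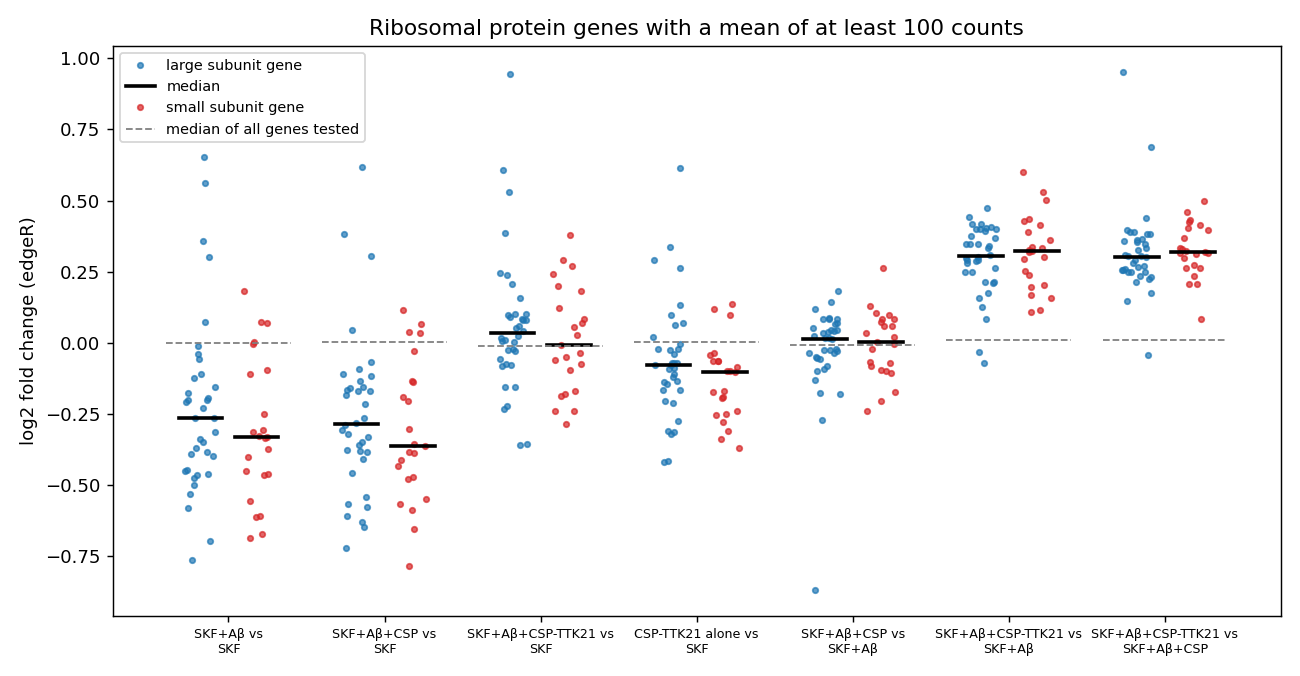
Log2 fold change from edgeR (vertical axis) of the 59 ribosomal protein genes with a mean of at least 100 counts in the 7 comparisons (horizontal axis), 1 point for each gene, blue for the large and red for the small subunit. Black bars are medians of each subunit and dashed lines the median of all genes tested. Both subunits lie mostly below 0 in SKF+Aβ and the carrier group against SKF, and above 0 in the conjugate group against either.

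The 4 genes that fell encode proteins of both subunits. Rpl13a (ENSRNOG00000020618) encodes a large subunit protein that can also leave the ribosome and bind mRNAs as part of an interferon-gamma response complex. Its level was 427.9 and 437.3 normalized CPM in SKF, 233.1 and 276.3 in SKF+Aβ, 284.5 and 240.5 in the carrier group, 303.4 and 371.3 in the conjugate group, and 318.4 and 330.6 in CSP‐TTK21 alone. The SKF libraries were above the other 8, and the conjugate libraries were above the 4 libraries of SKF+Aβ and the carrier group. The log2 fold change of Rpl13a in SKF+Aβ against SKF was -0.76 (SE 0.14, edgeR adjusted p = 0.0355).

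Rpl18 (ENSRNOG00000021035), another large subunit gene, was at 99.9 and 107.3 normalized CPM in SKF, 62.4 and 65.4 in SKF+Aβ, 72.3 and 59.95 in the carrier group, 79.4 and 82.5 in the conjugate group, and 86.0 and 85.5 in CSP‐TTK21 alone. SKF again lay above all other libraries, with CSP‐TTK21 alone second. Rpl18 fell with a log2 fold change of -0.70 (SE 0.13, edgeR adjusted p = 0.0355) in SKF+Aβ against SKF.

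Rpsa (ENSRNOG00000018645) encodes a small subunit protein also known as a receptor for laminin. Its level was 243.9 and 233.9 normalized CPM in SKF, 149.6 and 163.9 in SKF+Aβ, 179.3 and 146.7 in the carrier group, 207.3 and 214.1 in the conjugate group, and 187.9 and 197.6 in CSP‐TTK21 alone. The order of the groups was SKF, the conjugate group, CSP‐TTK21 alone, then SKF+Aβ and the carrier group, which overlapped. The log2 fold change of Rpsa was -0.61 (SE 0.13, edgeR adjusted p = 0.0415) in SKF+Aβ against SKF.

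Rps15 (ENSRNOG00000024603), a protein of the head of the small subunit, was at 143.9 and 185.4 normalized CPM in SKF, 92.3 and 112.5 in SKF+Aβ, 120.2 and 98.8 in the carrier group, 135.5 and 154.3 in the conjugate group, and 132.5 and 144.0 in CSP‐TTK21 alone. Its SKF replicates were further apart than those of the other 3 genes, and SKF overlapped the conjugate group and CSP‐TTK21 alone but not SKF+Aβ. The log2 fold change was -0.69 (SE 0.16, edgeR adjusted p = 0.0488), the closest of the 4 to the threshold.

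**Figure D4:**
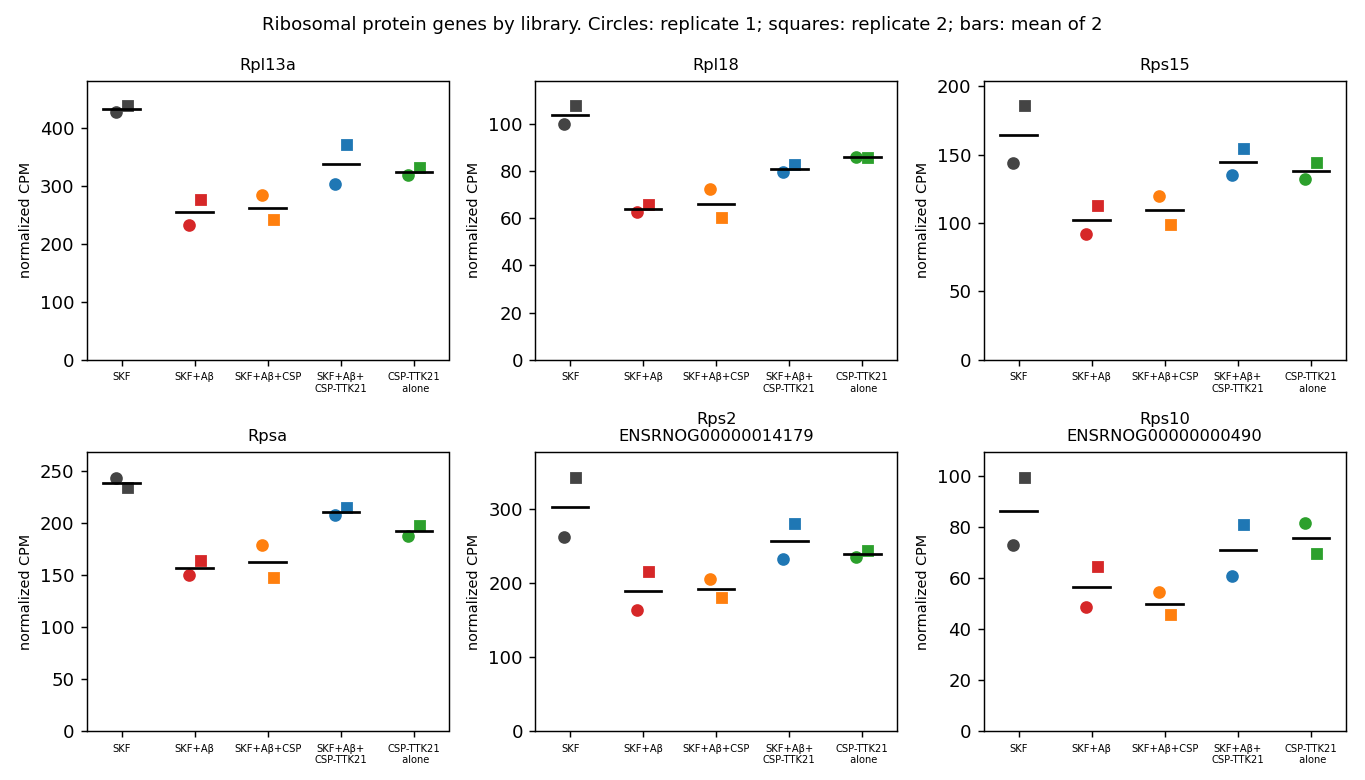
Normalized CPM (vertical axes, from 0) of Rpl13a, Rpl18, Rps15, Rpsa, Rps2 and Rps10 in the 5 groups (horizontal axes), with a circle for replicate 1, a square for replicate 2 and a bar for their mean. In each panel the SKF mean is the highest and the SKF+Aβ and carrier means are the lowest, with the conjugate group and CSP‐TTK21 alone between them.

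The called genes were not simply those of lowest log2 fold change, and others with similar values did not pass the threshold with edgeR. Rps2 (ENSRNOG00000014179), a small subunit protein near the entry of the mRNA channel, had a log2 fold change of -0.67 (SE 0.17) and Rps10 (ENSRNOG00000000490) of -0.61 (SE 0.20) in SKF+Aβ against SKF. With DESeq2, 9 genes fell, which included the 4 above and Rps2, Rps20, Rpl12 and Rpl27. DESeq2 called 8.32% of all genes to which it gave an adjusted p, and 15.3% of such ribosomal protein genes. Rplp0, the base of the stalk that recruits elongation factors, was at 167.5 and 228.3 normalized CPM in SKF and 130.7 and 156.2 in SKF+Aβ, without overlap (log2 fold change -0.46, SE 0.16). Rpl3, at the peptidyl transferase centre, was at 285.3 and 288.4 in SKF and 253.1 and 299.1 in SKF+Aβ, so that the groups overlapped (log2 fold change -0.06, SE 0.13). Over the 59 genes the log2 fold change ranged from -0.76 to 0.65.

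The carrier group was compared with SKF to see the same contrast in the presence of the empty carrier. It shares the SKF libraries with the comparison above, and its values are given beside those and not as a repeat of them. The median log2 fold change was -0.30 (-0.29 in the large and -0.30 in the small subunit, 0.00 over all genes), and 59 of 72 genes were below 0, beside 49.7% of all genes. None of the 72 genes passed the adjusted threshold with edgeR, where 0.02% of all genes did (0.0133% higher, 0.00665% lower). At an unadjusted p under 0.05, 22 genes were lower, 30.6% beside 9.03% of all genes, and 2 were higher, beside 10.3%. With DESeq2, 7 genes passed, 11.9% of the ribosomal protein genes with an adjusted p beside 4.77% of all genes. The lowest edgeR adjusted p was that of Rpl13a (0.0574, log2 fold change -0.72, SE 0.14). Rps10 had a log2 fold change of -0.78 (SE 0.20), and its level was 72.9 and 99.3 normalized CPM in SKF against 54.5 and 45.4 in the carrier group. In 35 genes, 48.6%, the groups did not overlap and the carrier group was lower, and 25.3% of all genes did so. The median was -0.13 without SKF replicate 2 and -0.17 without carrier replicate 2. The carrier group and SKF+Aβ differed from each other by a median of 0.01, with 34 of 72 genes below 0, and 0 called by edgeR (0% of all genes). At an unadjusted p under 0.05, 1 gene was lower (0.552% of all genes) and 0 were higher (1.63%). This gene was a copy of Rplp1 described below, and 2 genes were lower and 7 higher without overlap, beside 12.9% and 14.3% of all genes. This median was between -0.10 and 0.13 when 1 library was left out. Cell type markers also differed from SKF. The median log2 fold change of the microglial markers was -0.45 in the carrier group, with all 5 below 0. It was -0.30 in SKF+Aβ, with 4 of 5 below 0. For the neuronal markers it was -0.22 and -0.13, with 4 of 6 below 0 in each, and for the astrocyte markers -0.11 and -0.003. None of these markers passed the adjusted threshold with edgeR, and their part was not tested.

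Most ribosomal protein genes had a higher mean level in the conjugate group than in SKF+Aβ or the carrier group, and none passed the adjusted threshold. Against SKF+Aβ the median log2 fold change was 0.32 (0.30 in the large and 0.33 in the small subunit, 0.01 over all genes), with 65 of 72 genes above 0. Against the carrier group it was 0.31 (0.30 and 0.32, and 0.01 over all genes), with 68 of 72 above 0. edgeR called 0 of 72 genes in either comparison, and 0% of all genes. DESeq2 called 0 as well, beside 0% of all genes against SKF+Aβ and 0.0757% against the carrier group. At an unadjusted p under 0.05, 23 genes were higher than in SKF+Aβ, 31.9% beside 2.52% of all genes, and 17 higher than in the carrier group, 23.6% beside 3.17%. In 50 genes, 69.4%, both conjugate libraries were above both SKF+Aβ libraries, and in 53 genes, 73.6%, they were above both carrier libraries. The shares over all genes were 18.2% and 23.5%, and 0 ribosomal protein genes were lower without overlap in either comparison. In 43 genes, 59.7%, the conjugate libraries were above all 4 libraries of the other groups with Aβ, and 11.1% of all genes were. The medians stayed above 0 whichever library was left out. The lowest were 0.21 without SKF+Aβ replicate 1 and 0.19 without carrier replicate 2. Markers of other cell types also differed between the conjugate and carrier groups. The median log2 fold change of the 5 microglial markers was 0.68, that of the 5 astrocyte markers 0.42, that of the 5 interneuron markers 0.23 and that of the 6 neuronal markers 0.15, with every marker above 0 and no overlap in 4, 4, 5 and 4 of them. The oligodendrocyte median was 0.17, with all 5 above 0 and 0 without overlap. It was 0.08 for the dentate gyrus markers and 0.05 for the CA3 markers, each with 1 of 3 below 0. The summed astrocyte level was 2748 and 2666 normalized CPM in the carrier group and 3470 and 3342 in the conjugate group. The endothelial markers Flt1 and Kdr lay the other way (median -1.11), Cldn5 was at 0 in all 10 libraries and Pecam1 was not found, and the summed endothelial level was 115.8 and 78.6 in the carrier group and 49.3 and 43.1 in the conjugate group. Against SKF+Aβ, the median was 0.48 for the microglial, 0.31 for the astrocyte and 0.08 for the neuronal markers, with every marker above 0, and 0.18 for the interneuron markers, with 1 of 5 below 0. It was -0.53 for Flt1 and Kdr, and the oligodendrocyte values are given above. None of these markers passed the adjusted threshold with edgeR, and their part in the results was not tested.

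Rpl19, a large subunit gene second among the 59 to an entry of Rplp1 in the difference from the carrier group, was at 102.9 and 76.4 normalized CPM in the carrier group and 173.7 and 115.6 in the conjugate group (log2 fold change 0.69, SE 0.27). It did not pass the adjusted threshold with edgeR (adjusted p = 0.556), and its replicates differed widely within both groups.

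Against SKF, the conjugate group had a median near 0. The median log2 fold change was 0.02 (0.03 in the large and -0.00 in the small subunit, -0.01 over all genes), with 32 of 72 genes below 0 and 40 above. Without SKF replicate 1 the median was -0.16 and without SKF replicate 2 it was 0.18, and without conjugate replicate 2 it was -0.07, so that the sign depended on single libraries. edgeR called 0 of 72 genes (0.00665% of all genes), with 4 higher and 2 lower at an unadjusted p under 0.05, beside 10.8% and 8.78% of all genes. In 18 genes, 25% beside 26% of all genes, the conjugate libraries were above both SKF libraries, and in 4 genes, 5.56% beside 24.5%, they were below. Without SKF replicate 2, Rpl39 and Rpl30 were called as higher, and 2.14% of all genes passed. The genes that fell in SKF+Aβ were all below 0 here, with a log2 fold change of -0.36 (SE 0.14) for Rpl13a, -0.36 (SE 0.13) for Rpl18, -0.19 (SE 0.16) for Rps15 and -0.18 (SE 0.13) for Rpsa. These 4 genes were chosen for their decrease in SKF+Aβ against the same SKF libraries, so values closer to 0 here are a description and not a result.

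CSP‐TTK21 alone differed from SKF both by the conjugate and by the absence of SKF, and these cannot be told apart. The median log2 fold change was -0.09 (-0.08 in the large and -0.10 in the small subunit, 0.00 over all genes), with 55 of 72 genes below 0, beside 49.6% of all genes. edgeR called 0 of 72 genes (0% of all genes), and DESeq2 called 0 (0.0119%). At an unadjusted p under 0.05, 5 genes were lower and 1 was higher, beside 3.63% and 4.16% of all genes. In 16 genes, 22.2%, CSP‐TTK21 alone was below SKF without overlap, where 17.3% of all genes were. The median was -0.27 without SKF replicate 1 and 0.05 without SKF replicate 2. A test of any difference among the 5 groups gave 0 of 72 genes at an adjusted p under 0.05 with edgeR (0.00665% of all genes) and 17 at an unadjusted p under 0.05, 23.6% beside 14.3% of all genes. The lowest p-values in this test were those of Rpl13a, Rpl18, Rpsa, Rps15, Rps2 and Rpl39.

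Several genes did not follow the others. Rpl39 (ENSRNOG00000043348) encodes a very small protein that lines the exit tunnel of the large subunit, and it is the only one of 7 entries of that symbol that was tested. Its level was 13.4 and 17.9 normalized CPM in SKF, 25.004 and 24.3 in SKF+Aβ, 24.6 and 23.5 in the carrier group, 30.04 and 30.2 in the conjugate group, and 19.6 and 28.3 in CSP‐TTK21 alone. The SKF libraries were the lowest 2 of the 10, unlike most of the genes, and the conjugate libraries were the highest 2. Against SKF, the log2 fold change of Rpl39 was 0.94 (SE 0.20, edgeR adjusted p = 0.0858) in the conjugate group and 0.65 (SE 0.20, edgeR adjusted p = 0.0907) in SKF+Aβ. DESeq2 called Rpl39 in the conjugate group against SKF, where it called 3.65% of all genes.

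Rpl22l1 (ENSRNOG00000011817) is a paralog of Rpl22, which had no entry. It was at 15.3 and 20.6 normalized CPM in SKF, 25.3 and 27.7 in SKF+Aβ, 23.4 and 23.5 in the carrier group, 27.9 and 24.0 in the conjugate group, and 23.4 and 22.1 in CSP‐TTK21 alone. SKF was again below the other 8 libraries. The log2 fold change in SKF+Aβ against SKF was 0.56 (SE 0.18) and did not pass the threshold with edgeR. Over the 72 genes, 3 lay lower in both SKF libraries than in all 4 libraries of SKF+Aβ and the carrier group, 4.17% beside 18.9% of all genes, and 26 lay higher, 36.1% beside 17.5%.

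Rpl7l1 (ENSRNOG00000016269), a paralog of Rpl7 known from ribosome assembly, stayed between 33.5 and 39.2 normalized CPM in all 10 libraries. Its values were 35.9 and 33.6 in SKF and 37.9 and 35.3 in SKF+Aβ, which overlapped. It was 1 of the 2 genes among the 59 that were not higher in the conjugate group than in SKF+Aβ, with Rpl22l1 (log2 fold change -0.07, SE 0.15, and -0.03, SE 0.18). Rps27l, a paralog of Rps27, was lower in counts (mean 45.8) and had a log2 fold change of -0.22 (SE 0.30) in SKF+Aβ against SKF.

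Rpl30 was at 71.1 and 106.4 normalized CPM in SKF, 108.4 and 119.2 in SKF+Aβ, 114.2 and 105.1 in the carrier group, 143.2 and 127.3 in the conjugate group, and 91.2 and 125.8 in CSP‐TTK21 alone. SKF replicate 1 was the lowest library and the conjugate libraries the highest. An entry of Rplp1 (ENSRNOG00000013874), a stalk protein, varied widely between replicates, with 70.3 and 148.1 in the conjugate group and 126.5 and 73.9 in CSP‐TTK21 alone. It was lowest in the carrier group, at 62.4 and 50.1, against 89.7 and 116.1 in SKF+Aβ (log2 fold change -0.87, SE 0.31, edgeR adjusted p = 1.00). An entry of Rpl37 (ENSRNOG00000034180) was at 10.8 normalized CPM in SKF+Aβ replicate 1 and 14.1 in carrier replicate 1, and between 0.745 and 2.30 in the other 8 libraries. Its log2 fold change of 1.88 (SE 1.05) in SKF+Aβ against SKF therefore rested on 1 library.

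The 13 tested entries with a mean below 100 counts gave the widest fold changes and errors. Against SKF, Rps27l3 had a log2 fold change of 1.14 (SE 0.58) in SKF+Aβ and an entry of Rpl38 (ENSRNOG00000029377) of -1.03 (SE 0.79). An entry of Rps2 (ENSRNOG00000059428) had -1.14 (SE 0.81) and Rpl10l, a paralog of Rpl10, -1.12 (SE 0.77) in the carrier group. None of the 13 passed the threshold with edgeR in any comparison.

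**Figure D5:**
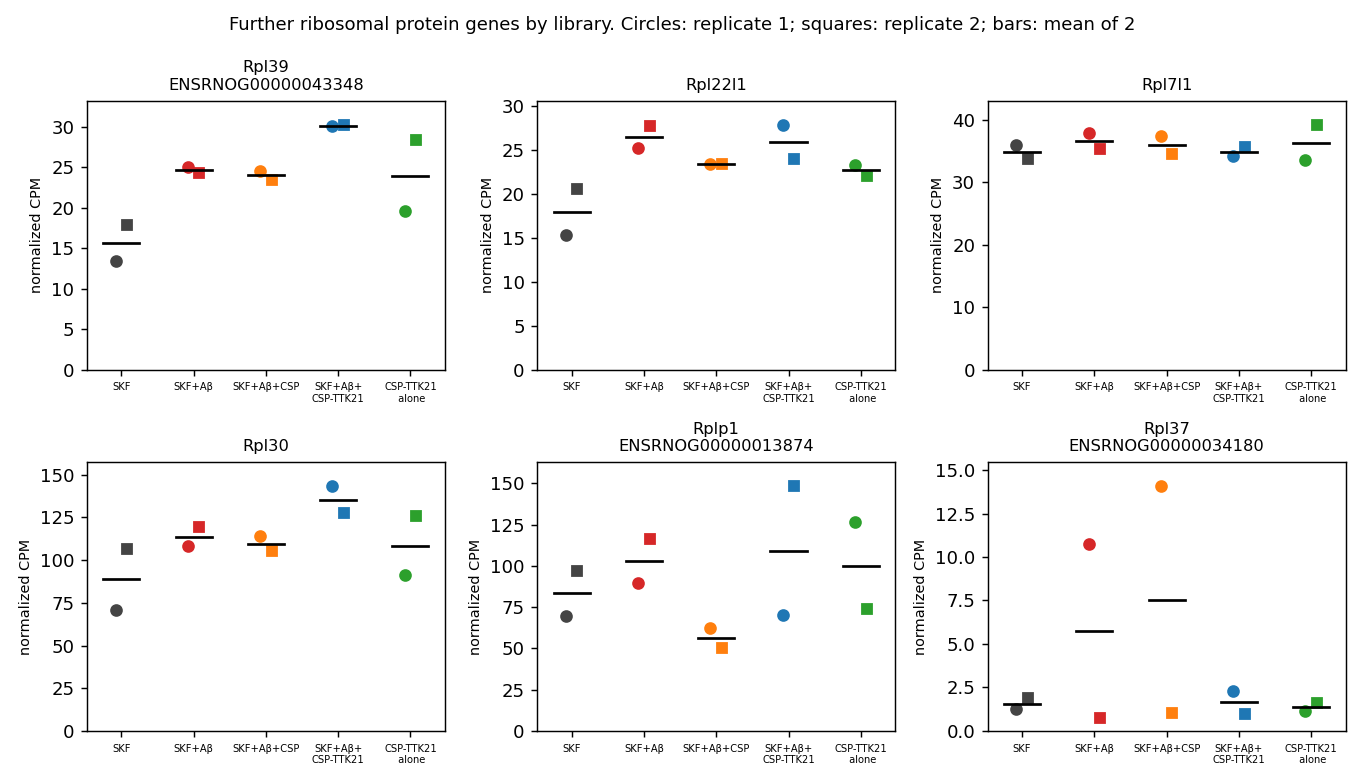
Normalized CPM (vertical axes, from 0) of Rpl39, Rpl22l1, Rpl7l1, Rpl30 and entries of Rplp1 and Rpl37 in the 5 groups (horizontal axes), with a circle for replicate 1, a square for replicate 2 and a bar for their mean. Rpl39 and Rpl22l1 are lowest in SKF, Rpl7l1 is nearly level, and the Rplp1 and Rpl37 entries differ widely between replicates.

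The promoters of the ribosomal protein genes were examined for the sequences they share, in windows from 250 bases before to 50 bases after the annotated start in RefSeq (rat build GRCr8). Of the 59 genes with a mean of at least 100 counts, 45 had a unique window. A C at the start followed by 4 of C or T, the form of a TOP tract, was present in 18 of the 45, and in 2.63% of all 33469 windows. Such a run within 10 bases of the start on the sense strand was present in 73.3%, against 27.8% of all windows. CCGGAA on either strand, the core of the site of the ETS family of transcription factors, was present in 53.3% of the 45 and in 15.0% of all windows. AAGATGGC on either strand was present in 6.67% and 3.17%, and TATAAA in 11.1% and 14.2%. The windows below run from 40 bases before to 20 bases after the start of the 4 genes that fell and of Rpl39, Rpl22l1 and Rpl7l1, which did not follow them, with capitals for runs of at least 5 C or T that touch the 10 bases on either side of the start. They lie at chr1:104748894-104748953 (minus strand) for Rpl13a, chr1:105325230-105325289 (plus) for Rpl18, chr7:10068096-10068155 (minus) for Rps15, chr8:128728839-128728898 (plus) for Rpsa, chrX:121195877-121195936 (minus) for Rpl39, chr2:113683156-113683215 (plus) for Rpl22l1 and chr9:21695678-21695737 (plus) for Rpl7l1.
Rpl13a: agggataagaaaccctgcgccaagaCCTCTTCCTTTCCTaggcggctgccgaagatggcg
Rpl18: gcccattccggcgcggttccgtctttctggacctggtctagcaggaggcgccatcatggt
Rps15: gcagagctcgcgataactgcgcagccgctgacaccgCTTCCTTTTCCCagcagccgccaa
Rpsa: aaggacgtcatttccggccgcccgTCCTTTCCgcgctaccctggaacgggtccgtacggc
Rpl39: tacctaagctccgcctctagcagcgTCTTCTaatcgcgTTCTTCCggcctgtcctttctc
Rpl22l1: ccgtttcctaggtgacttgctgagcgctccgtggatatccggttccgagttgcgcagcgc
Rpl7l1: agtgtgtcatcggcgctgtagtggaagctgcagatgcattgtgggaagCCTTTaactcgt

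A C followed by 4 of C or T within 10 bases of the start was present in Rpl13a and Rps15, and also in Rpl39 and Rpl7l1, whose log2 fold changes were above 0. It was not found there in Rpl18, Rpl22l1 or Rpsa. In Rpsa the run lies further upstream of the annotated start. Over the 45 genes, the median log2 fold change in SKF+Aβ against SKF was -0.33 in the 33 with a run within 10 bases and -0.30 in the 12 without. In the conjugate group against SKF+Aβ it was 0.34 and 0.32. The values with and without CCGGAA were also close, at -0.32 in 24 genes and -0.33 in 21 in SKF+Aβ against SKF. These medians are a description without a test.

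Genes that work with the ribosomal proteins were described in the same comparisons. Of 24 other genes translated from TOP mRNAs, such as elongation factors, 0 were called by edgeR in any comparison, and their median was -0.07 in SKF+Aβ against SKF, with 4 higher and 3 lower at an unadjusted p under 0.05, beside 12% and 10.9% of all genes. Their median in the conjugate group was 0.15 against SKF+Aβ and 0.16 against the carrier group. Eef2, the factor that moves the ribosome along the mRNA, was at 1344 and 1310 normalized CPM in SKF and 795.0 and 991.7 in SKF+Aβ (log2 fold change -0.57, SE 0.15, edgeR adjusted p = 0.0591). Nap1l1, a histone chaperone, lay the other way, at 130.1 and 139.1 in SKF and 186.5 and 197.6 in SKF+Aβ (log2 fold change 0.51, SE 0.14, edgeR adjusted p = 0.0641). Rpl36al, which encodes a large subunit protein, and Gnb2l1, which encodes the small subunit protein Rack1, are not matched by the symbol rule. Their log2 fold changes in SKF+Aβ against SKF were -0.31 (SE 0.17) and -0.24 (SE 0.13), and neither passed the threshold.

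Of 44 ribosome assembly factors, 17 genes of ribosomal RNA transcription and 20 regulators, 1 each was called in SKF+Aβ against SKF, beside 2.08% of all genes, so that these counts say nothing of the lists. The median of the assembly factors was -0.10. Their called gene was Eif6, which keeps the subunits apart during assembly. It was at 71.6 and 61.1 normalized CPM in SKF and 40.1 and 38.6 in SKF+Aβ (log2 fold change -0.75, SE 0.15, edgeR adjusted p = 0.0370). The assembly factors' median in the conjugate group was -0.06 against SKF+Aβ and -0.12 against the carrier group, with 0 called, whereas the ribosomal protein genes' medians were above 0. Among the genes of ribosomal RNA transcription, Taf1d of the polymerase I selectivity factor rose from 24.6 and 24.0 in SKF to 57.3 and 34.6 in SKF+Aβ (log2 fold change 0.92, SE 0.22, edgeR adjusted p = 0.0497). Among the regulators, Myc, a transcription factor of ribosome biogenesis, fell from 68.0 and 78.9 in SKF to 48.2 and 41.0 in SKF+Aβ (log2 fold change -0.72, SE 0.15, edgeR adjusted p = 0.0401). It was at 60.02 and 52.6 in the carrier group and at 58.3 and 62.2 in the conjugate group. No member of these lists was called by edgeR in the other 6 comparisons. When each of the 10 libraries was left out in turn, Eif6 was called 5 times, Myc 4 times and Taf1d once, with edgeR adjusted p up to 0.147, 0.147 and 0.264.

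The mitochondrial ribosomal protein genes, which build the separate ribosome of mitochondria, were tested for 69 of 76 genes, and 0 were called by edgeR in any comparison. Their median was -0.02 in SKF+Aβ against SKF and -0.13 in the carrier group against SKF, nearer to 0 than the medians of -0.31 and -0.30 of the cytosolic genes. In the conjugate group their median was 0.16 against SKF+Aβ and 0.19 against the carrier group, and 39 of 69 were above the carrier group without overlap and 3 below, beside 23.5% and 22.8% of all genes. Mrps34 had a log2 fold change of -0.94 (SE 0.20, edgeR adjusted p = 0.0655) and Mrps30 of 0.93 (SE 0.22, edgeR adjusted p = 0.0792) in the carrier group against SKF, and neither passed the threshold.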

How the data were processed

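RNA was sequenced from microdissected CA1 tissue of rats, 10 libraries in 5 groups of 2. The deposited values are raw counts, whole numbers for each rat Ensembl gene, that the authors neither normalized nor pooled. Per the methods, libraries were made with a stranded kit that depletes ribosomal RNA, PCR duplicates were removed, and reads were aligned with TopHat2 and quantified with Cufflinks and Cuffmerge. The methods name a rat genome for the index but a mouse assembly for the alignment, and the submitters' processing notes name the human build GRCh38 and STAR, RSEM, HISAT2 and Salmon without roles. The build behind the counts is therefore uncertain, which bears on core genes listed near 0, although the gene identifiers are those of rat. The program and strand setting that gave the whole-number counts are not given in the sources used here. Overlapping genes and near-identical copies are therefore uncertain, and removal of duplicates can lower the counts of short, abundant mRNAs.

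Groups and replicate numbers came from the sample titles. Members were matched by symbol, and the members and lists were chosen with earlier results of these data known. Genes were filtered with filterByExpr by group, normalized with TMM factors and fitted with edgeR 4.0.16 in R 4.3.3, by the quasi-likelihood test with a mean per group over all 10 libraries and no covariate, and 7 comparisons were made. Adjusted p-values are Benjamini-Hochberg values over the 15032 genes tested, and genes were called at 0.05. The common biological coefficient of variation was 13.6%. The log2 levels behind the correlations used a prior count of 2, and the fitted log2 fold changes used edgeR's default. The scripts were tested on simulated data. Alternatives were DESeq2 1.42.0, other size factors, filters, a fold limit, the 4 libraries compared alone, a replicate block and leaving out each library. Named genes were the called members, the 3 highest and lowest in each comparison (of those with under 100 counts, the text names the widest, a choice made after their values were seen), the lowest p over the groups and paralogs. Rplp0, Rpl3, Rps10 and Rpl30 were named from the matched members after their values were seen. Precision is limited by 2 replicates a group, and p-values measure the spread between these libraries. Values of some single genes are not reported here. The electrophysiology and RT‐PCR were not analysed here.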

Additional observations from a re-analysis of the deposited data

How the results depend on the processing

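The medians of the ribosomal protein genes kept their sign with RLE factors, at least 10 counts required in all libraries and, as an alternative chosen after seeing the data, only the genes with a mean of at least 100 counts. With library totals alone the median of the conjugate group against SKF was -0.05, and the other 6 kept their sign. The count of called genes moved more. In SKF+Aβ against SKF it was 18 with no filter (17.8% of 101 members, beside 5.19% of all genes), 9 with DESeq2 (15.3% beside 8.32%), 0 with a log2 fold limit of 1.5 (0.146% of all genes) and 0 when the 4 libraries compared were fitted alone (0.0833%), and 0 to 3 when 1 library was left out (0.00644% to 1.92%). In the carrier group against SKF it was 14 with no filter (13.9% beside 2.99%), 1 with at least 10 counts (1.59% beside 0.418%) and 7 with DESeq2 (11.9% beside 4.77%). In the conjugate group against SKF it was 2 with no filter (1.98% beside 3.57%), 1 with DESeq2 (1.69% beside 3.65%) and 0 to 2 when 1 library was left out. With no filter it was 1 in the carrier group against SKF+Aβ, 2 in the conjugate group against SKF+Aβ and 3 against the carrier group, beside 0.261%, 0.507% and 1.22% of all genes. Over the 5 groups it was 16 with no filter (15.8% beside 5.55%) and 6 with DESeq2 (10.2% beside 4.15%). The cause was not tested.

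When 1 library was left out, the median ranged from -0.47 to -0.12 in SKF+Aβ against SKF, from -0.43 to -0.13 in the carrier group against SKF, from -0.16 to 0.18 in the conjugate group against SKF and from -0.27 to 0.054 in CSP‐TTK21 alone against SKF. Without the 3 members of highest count the share was 0.793%, 0.659%, 0.651%, 0.777% and 0.745% in the order SKF, SKF+Aβ, carrier, conjugate and CSP‐TTK21 alone. Without the 3 of highest count in each subunit the ratio was 1.57, 1.64, 1.61, 1.60 and 1.63 in the same order, and SKF no longer overlapped the other groups. With mitochondrial and small structural RNA genes left out of the total, the share was 0.954%, 0.798%, 0.795%, 0.947% and 0.904% in that order.

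The replicate numbers were not taken to pair the samples, since the correlation of same-numbered deviations over 10 pairs of groups was between -0.07 and 0.24 across all genes and between -0.39 and 0.45 across the ribosomal protein genes. With the replicate block, 5 genes were called in SKF+Aβ against SKF (2.83% of all genes) and 1 in the conjugate group against SKF (0.718%), and 0 in the other comparisons. With 2 libraries a group, counts of called genes can change by the exclusion of any library. The 34 entries with a mean of at most 3.0 counts did not pass the filter, and the cause of their low counts was not tested.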
